A study of Mus musculus with 12 samples.

Results

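The earliest hour at which this study sampled cells made to express SOX7 was 6 h. The comparison described here sets 2 libraries kept with doxycycline (Dox) for 6 h against 2 untreated libraries of the same hour. These 4 libraries were taken from 12, by the treatment and hour that their sample labels give, and all genes were compared, as Dox over no Dox. All libraries came from mouse embryonic stem cells of the iSox7 line, an Ainv18 derivative in which Dox switches on a Sox7 transgene. FLK1+ cells were sorted from embryoid bodies on day 3.5 and grown for 48 h in liquid blast medium, which holds VEGF and IL6. The labels call the product hemogenic endothelium (HE). The 2 groups of the comparison are NoDox at 6 h (no treatment) and Dox at 6 h (1 µg/ml). The other 8 libraries, NoDox and Dox at 12 h and at 24 h, entered the same statistical fit and are used below to follow the genes of 6 h. Every library carries the transgene, and no Dox-treated line without it is among them, so effects of SOX7 and of Dox itself cannot be told apart. The labels name 1 engineered line and do not say whether the 2 libraries of a group were separate cultures, so the p-values rest on a spread between samples that may be technical.

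SOX7 belongs with SOX17 and SOX18 to the SOXF group of transcription factors, which bind DNA through an HMG box and act in the forming endothelium. Hemogenic endothelium is a transient endothelium that gives rise to blood cells in a step called the endothelial-to-hematopoietic transition. In that step RUNX1 switches on blood genes, among them the repressors GFI1 and GFI1B, which shut down endothelial genes, while SOX7 is switched off as cells become blood. The series' title puts the question as one of SOX7 and the target genes of RUNX1, and the libraries of 6 h show which genes had changed first.

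Of 15347 genes tested, 236 were called at 6 h (1.54%), at an adjusted p under 0.05. The test here and below is edgeR's quasi-likelihood F test, adjusted by Benjamini and Hochberg's method over all genes tested, and every change given with ± is a log2 fold change with its standard error (SE). Dox raised 126 of them (0.821% of genes tested) and lowered 110 (0.717%). The rises were small and fell on well expressed genes: their median was 0.35 on the log2 scale, or 1.28-fold, at a median level of 81.6 CPM (read counts scaled to library size). The falls were larger and fell on less expressed genes, with a median of -0.52, or 1.43-fold, at a median level of 24.3 CPM, where all tested genes had medians of 0.005 and 22 CPM. A change of at least 1.5-fold was reached by 22 of the genes that rose and 45 of those that fell, and one of at least 2-fold by 8 and 15. In each of the 236 genes both Dox libraries lay on the same side of both untreated ones, which was also true of 39.4% of all genes tested. Leaving out 1 library at a time lowered the number of calls to 89 (untreated replicate 1), 137 (untreated replicate 2), 180 (Dox replicate 1) and 86 (Dox replicate 2). In all 4 of these fits 58 genes kept their call, 31 of them higher and 27 lower, and each of the 236 kept its direction.

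**Figure D1:**
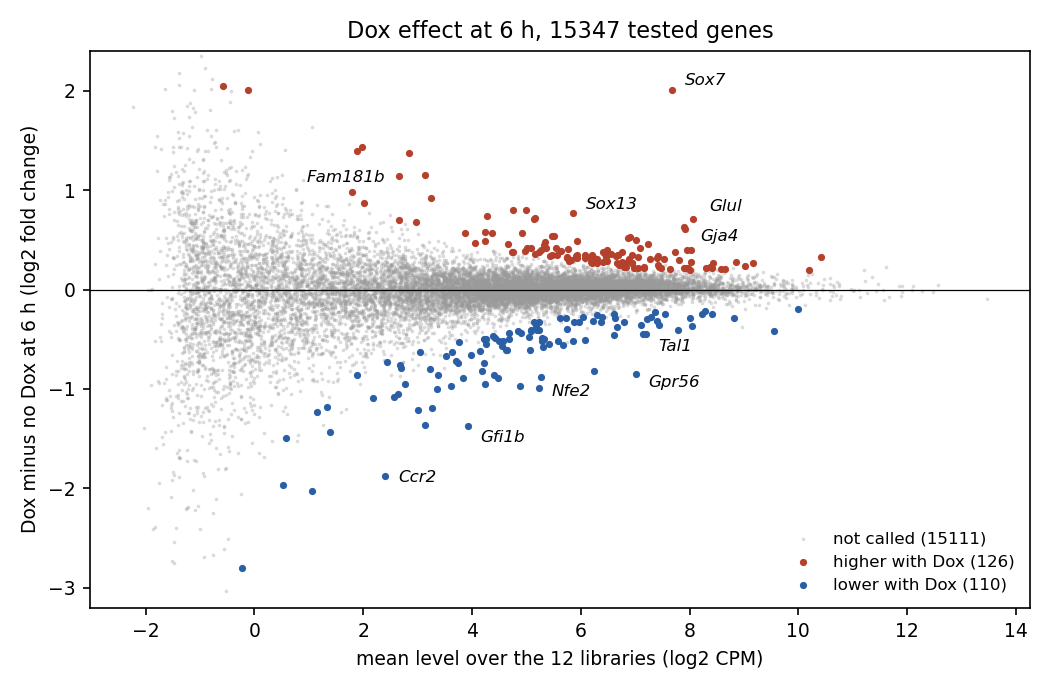
Fitted change at 6 h (vertical axis, log2 fold change of Dox over no Dox) against the mean level over 12 libraries (horizontal axis, log2 CPM), 1 point per tested gene. Coloured points are the 126 genes called higher and the 110 called lower, and 16 uncalled genes lie outside the drawn range. Sox7 stands apart at 2.01, while most other rises of well expressed genes are below 1.

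Total counts of the 4 libraries were 13485804 to 28444464, with 1 deeper and 1 shallower library in each group, so depth does not separate the groups. The deeper ones were untreated replicate 1 (28444464) and Dox replicate 2 (27516106). Fits without either of these therefore also dropped more reads than fits without the shallower libraries. The labelled cell type was checked by its markers, with levels given as the authors' deposited RPKM, which adjust for gene length. Without Dox, Cdh5 (VE-cadherin) had a mean of 149 RPKM, Kdr (FLK1) 73.8 and Pecam1 58.1, while the blood marker Ptprc (CD45) had 0.149 and the macrophage receptor Csf1r 0.417. Another blood marker, Itga2b (CD41), was present, with 1743 and 836 reads in the untreated libraries. The cultures also held transcripts of other lineages: Acta2 (smooth muscle actin) had a mean of 2555 RPKM, the embryonic globin Hbb-bh1 1227 and the heart and mesoderm factor Hand1 182. Over all 20 tested myeloid markers the summed level was 142 and 130.1 CPM in the untreated libraries and 129 and 137 CPM with Dox, and the neutrophil genes Elane and Ctsg had 0 reads in all 4 libraries. The summed level of the 16 tested smooth muscle and mesenchyme markers was 7873 and 8171 CPM in untreated libraries and 7741 and 7812 CPM in Dox libraries. In bulk samples fewer cells of a type and less RNA per cell cannot be told apart, which holds for every fall reported below.

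Sox7 itself (chromosome 14, 63943674 to 63950732, plus strand, GRCm38) checks the labels. It stood at 77.9 and 81.7 CPM in the untreated libraries and at 326 and 314 CPM in those with Dox. The groups were far apart, with means of 79.8 ± 2.65 and 319.8 ± 8.55 CPM (SD, n = 2) and a log2 change of 2.01 ± 0.06 (SE; adjusted p = 1.7e-19). Reads of the transgene and of the cells' own gene are counted together. Per gene length, Sox7 stood at 22.3 RPKM without Dox, between Sox17 (16.9) and Sox18 (75.4), and at 88 RPKM with Dox, above both. Neither relative was called: Sox17 had 58.7 and 57 CPM without and 53.4 and 55.2 CPM with Dox, a log2 change of -0.09 ± 0.07 (adjusted p = 0.75). Sox18 had 129 and 136 CPM without and 116 and 118 CPM with Dox, a log2 change of -0.17 ± 0.06 (adjusted p = 0.2). At the later hours the log2 effect on Sox7 was larger, by 0.57 at 12 h (adjusted p = 0.0012) and by 0.67 at 24 h (adjusted p = 2e-05).

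**Figure D2:**
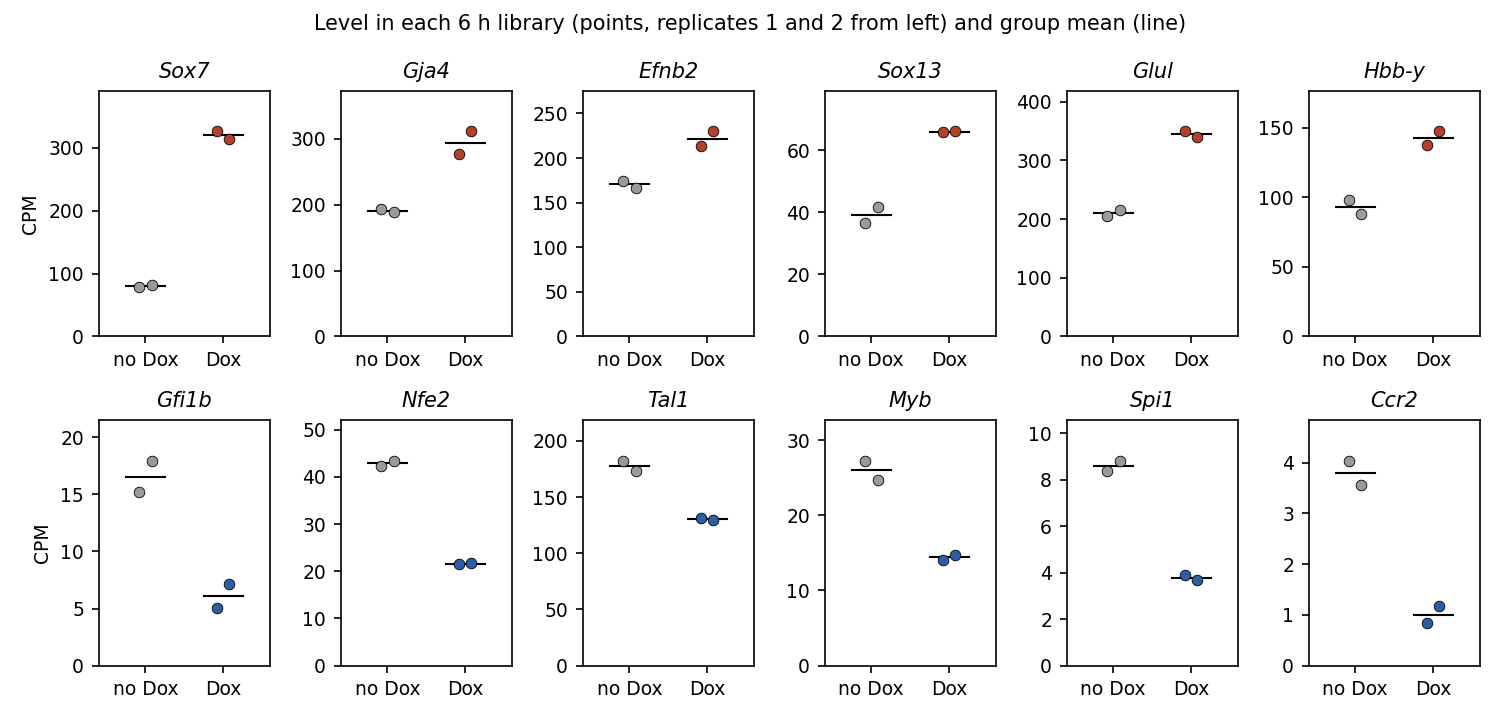
Level of 12 genes (CPM, vertical axes from 0) in each of the 4 libraries of 6 h, with replicates 1 and 2 of a group from left to right and a line at the group mean. Red marks genes called higher with Dox and blue those called lower, and the groups do not overlap in any of the 12.

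Blood regulators fell more often than they rose. Among the 27 tested blood transcription factors 8 fell, 1 rose and 18 were not called. That was 33.3% called, against 1.54% of all genes tested. Their median log2 fold change was -0.18, against 0.005 over all genes tested. At an unadjusted p under 0.05, which 10.4% of all genes tested reached, the falls numbered 12 and the rises 4. Without each of the 4 libraries of 6 h in turn 7 of the falls were still called, the one lost being that of Cebpb, a factor of white cells and fat (log2 fold change -0.52 ± 0.11, adjusted p = 0.0087, and 0.06 to 0.084 in those fits). Uncalled genes named beside the called ones here and below were chosen after their values were seen, as well known members of the group.

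Gfi1b (chromosome 2, 28609450 to 28621982, minus strand) encodes a zinc finger repressor that RUNX1 switches on and that silences endothelial genes. It had 15.2 and 17.9 CPM in the untreated libraries and 5.06 and 7.13 CPM in the Dox libraries. Both Dox libraries were below both untreated ones, and the log2 change of -1.37 ± 0.16 was among the 10 largest (adjusted p = 3.2e-06). Its relative Gfi1 was not called, with 8.81 and 10.1 CPM without and 6.65 and 8.38 CPM with Dox and a log2 change of -0.29 ± 0.16 (adjusted p = 0.57). The difference between the 2 genes was not tested. Nfe2, a factor of platelet and red cell precursors, stood at 42.3 and 43.4 CPM without Dox. With Dox it stood at 21.5 and 21.7 CPM, about the same in both libraries, for a log2 change of -0.99 ± 0.10 (adjusted p = 3.7e-07). Myb, needed for definitive blood stem and progenitor cells, went from 27.2 and 24.8 CPM in the untreated to 14.1 and 14.7 CPM in the Dox libraries, an order kept for all such pairs below. The groups did not overlap, with a log2 change of -0.86 ± 0.11 (adjusted p = 1.8e-05).

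Tal1 and Lyl1 encode related basic helix-loop-helix factors that set up the blood programme. Tal1 had 182 and 173 CPM without and 131 and 129 CPM with Dox. Lyl1 had 38.6 and 37.1 CPM without and 27 and 26.7 CPM with Dox. Both were lower in each Dox library, with log2 changes of -0.45 ± 0.06 and -0.50 ± 0.08 (adjusted p = 2.1e-05 and 0.00044). Lmo2, an adaptor that joins TAL1 to GATA factors, went the other way, from 59.5 and 58 CPM to 71.6 and 75.2 CPM. Its log2 fold change was 0.32 ± 0.07 (adjusted p = 0.011), a call lost without untreated replicate 1 (adjusted p = 0.12), untreated replicate 2 (0.15) and Dox replicate 2 (0.25). Gata1, the main factor of red cells and platelets, fell from 22.4 and 21.9 CPM to 11.8 and 11.2 CPM, with a log2 change of -0.95 ± 0.16 (adjusted p = 0.00049). Its partner Zfpm1 (FOG1) fell from 147 and 168 CPM to 116 and 114 CPM, with a log2 change of -0.45 ± 0.07 (adjusted p = 0.00025). Klf1, another red cell factor, was not called, with 13.2 and 14.7 CPM without and 9.70 and 9.88 CPM with Dox (log2 fold change -0.50 ± 0.16, adjusted p = 0.15). Spi1 (PU.1), the factor of white cells, was low throughout: 8.36 and 8.82 CPM without Dox against 3.88 and 3.67 CPM with it. The Dox libraries had less than the untreated ones, with a log2 change of -1.19 ± 0.20 (adjusted p = 0.0005).

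Of the 7 tested RUNX genes and partners 2 fell and 5 were not called (28.6% called, against 1.54% of all genes tested). Runx1 had 149 and 145 CPM without and 134 and 117 CPM with Dox. Dox replicate 2 was the lowest and the groups did not overlap, but the log2 fold change was only -0.23 ± 0.06 (adjusted p = 0.033). That call did not hold without untreated replicate 1 (adjusted p = 0.28), untreated replicate 2 (0.1) and Dox replicate 2 (0.62). Cbfa2t3 (ETO2), a corepressor found with TAL1 and GATA1, had 67.5 and 65.3 CPM without and 48.9 and 44.5 CPM with Dox. Its log2 change of -0.52 ± 0.07 (adjusted p = 2.5e-05) was called in each fit without 1 library, with adjusted p from 0.0001 to 0.0091. Cbfb, the binding partner of RUNX1, had a log2 change of 0.09 ± 0.05 and was not called. Gata2, Erg and Fli1, factors shared by endothelium and blood, were not called either, with log2 fold changes of -0.12 ± 0.09, 0.03 ± 0.07 and 0.14 ± 0.06.

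The promoter stretches of 3 of these lowered factors are printed because they show what the fixed windows hold. They are RefSeq sequences on GRCm38.p6, 250 bases upstream of the start site, 5′ to 3′ on the gene's strand. Capitals mark matches, on either strand, to 5 short motifs that do not overlap here. The letters searched were ACAAT and, as another SOX form, the letters ACAAAG. For RUNX factors the letters were TGTGGT, for GATA factors they were AGATAA, and for ETS factors they were CCGGAA.
Gfi1b, chr2:28621983-28622232, minus strand: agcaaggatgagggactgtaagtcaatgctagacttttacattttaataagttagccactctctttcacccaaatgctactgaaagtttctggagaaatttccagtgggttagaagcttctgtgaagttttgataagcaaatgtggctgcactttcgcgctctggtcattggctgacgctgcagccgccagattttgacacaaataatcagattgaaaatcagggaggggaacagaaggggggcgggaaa
Tal1, first of 2 listed starts, chr4:115056176-115056425, plus strand: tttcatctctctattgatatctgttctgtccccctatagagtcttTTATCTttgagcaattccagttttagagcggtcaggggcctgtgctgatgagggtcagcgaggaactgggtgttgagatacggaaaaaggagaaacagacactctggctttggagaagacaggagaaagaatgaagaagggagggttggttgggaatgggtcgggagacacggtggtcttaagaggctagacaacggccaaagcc
Lyl1, chr8:84701207-84701456, plus strand: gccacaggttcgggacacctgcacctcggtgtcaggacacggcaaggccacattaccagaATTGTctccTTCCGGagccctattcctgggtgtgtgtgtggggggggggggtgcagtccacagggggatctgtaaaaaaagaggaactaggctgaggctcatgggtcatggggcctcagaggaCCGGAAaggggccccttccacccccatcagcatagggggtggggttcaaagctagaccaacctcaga
The window of Gfi1b holds none of the 5 as spelled, and other spellings of these motifs were not searched. The one of the first start of Tal1 holds AGATAA at 205 bases before the start, on the minus strand. The window of the second start of Tal1, which is not printed, holds none of the 5. The one of Lyl1 holds ACAAT (minus strand) 190 bases before the start and CCGGAA 181 and 67 bases before it.

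Target genes of RUNX1 were taken as a list of 26 names. As in the other lists, the members were chosen with earlier results of these data known. Of the 26, 23 passed the filter on low counts, and the list was not tested as a set. Dox lowered 9 and raised 0, and 14 were not called, with a median log2 fold change of -0.38. At an unadjusted p under 0.05 these counts were 12 and 0, and DESeq2 also called 9 and 0. With limma they were 5 and 0 on log2(RPKM + 0.1), and 4 and 0 on log2(RPKM + 1). The share called by edgeR was 39.1%, against 1.54% of all genes tested. The falls numbered 6 without untreated replicate 1, 5 without Dox replicate 2 and 9 without either of the other 2 libraries. Besides Gfi1b, Nfe2, Myb and Spi1 they were the following 5. Itgb3, the beta chain of the platelet fibrinogen receptor, had 236 and 231 CPM without and 191 and 172 CPM with Dox. It was lower in both Dox libraries, with a log2 change of -0.37 ± 0.06 (adjusted p = 0.00058). Csf2rb, the common beta chain of the IL3 and GM-CSF receptors, went from 28 and 27.2 CPM to 21.1 and 16.5 CPM, a log2 change of -0.58 ± 0.10 (adjusted p = 0.0011). Gp1ba, of the platelet von Willebrand factor receptor, went from 10.01 and 10.7 CPM to 5.27 and 6.36 CPM, a log2 change of -0.80 ± 0.15 (adjusted p = 0.0017). Alox5ap, which serves leukotriene synthesis, and Mpo, the myeloperoxidase of granules, had log2 fold changes of -0.72 ± 0.14 and -0.66 ± 0.13 (adjusted p = 0.0038 and 0.0041). Of these 5 only Gp1ba was called in all 4 fits without 1 library. Without untreated replicate 1 the calls of Csf2rb, Alox5ap and Mpo were lost, and without Dox replicate 2 those of Itgb3, Csf2rb, Alox5ap and Mpo (adjusted p up to 0.39). Other targets were not called: Itga2b (CD41), the marker of the first blood cells, had 61.2 and 62 CPM without and 55.2 and 57.8 CPM with Dox, a log2 change of -0.12 ± 0.07 (adjusted p = 0.62).

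**Figure D3:**
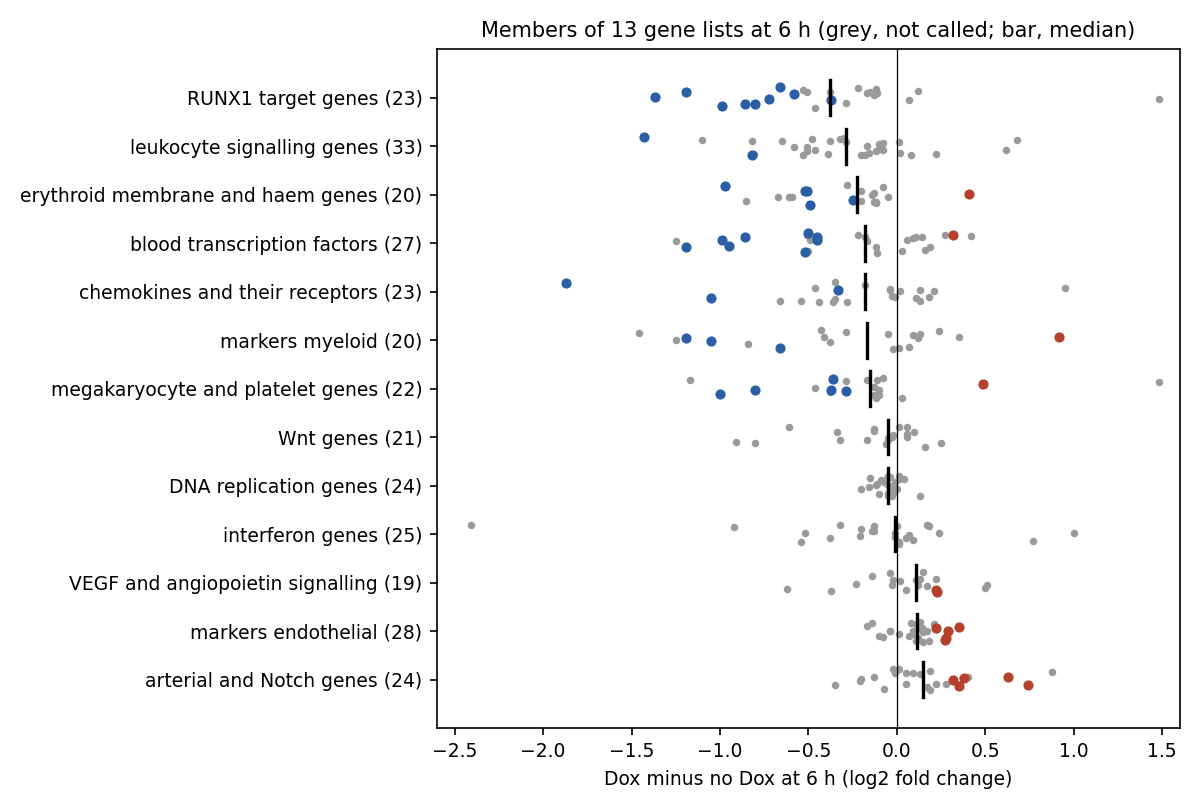
Log2 fold changes at 6 h (horizontal axis) of the tested members of 13 gene lists, with the number tested in parentheses, vertical bars at the medians, blue for called lower and red for called higher. Medians of the drawn lists run from -0.38 for RUNX1 target genes to 0.15 for arterial and Notch genes. The 13 were selected from 48 lists, and 2 with medians beyond these, globin genes (-0.5) and neural markers (0.31), are not drawn. In the drawn lists 2 members without a call lie outside the drawn range.

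Red cell genes fell in part. Of 20 tested genes of the red cell membrane and of heme synthesis 5 fell, 1 rose and 14 were not called, with a median log2 fold change of -0.22. Calls reached 30% of them, against 1.54% of all genes tested. Their summed level was 992 and 953 CPM in untreated libraries and 825 and 814 CPM in Dox libraries. Slc4a1 (band 3, the anion exchanger) stood at 27.4 and 27.6 CPM without Dox against 14.2 and 13.9 CPM with it. The Dox libraries held about the same low level, and the log2 fold change was -0.97 ± 0.14 (adjusted p = 6.3e-05). Gypc (glycophorin C) went from 74.4 and 73 CPM to 50.9 and 52.6 CPM, with a log2 change of -0.51 ± 0.07 (adjusted p = 7e-05). Tfrc (transferrin receptor) and Slc25a37 (mitoferrin, an iron importer of mitochondria) were lower, with log2 changes of -0.25 ± 0.06 and -0.52 ± 0.13 (adjusted p = 0.026 and 0.034). The member that rose was the water channel Aqp1, which endothelium also expresses, from 38.1 and 38.4 CPM to 50.9 and 50.5 CPM (log2 fold change 0.41 ± 0.07, adjusted p = 0.00097). Of the 5 falls 2 were left without untreated replicate 1, 3 without untreated replicate 2, 3 without Dox replicate 1 and 2 without Dox replicate 2, and Slc4a1 and Gypc were in each of these sets.

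The globins did not move together. Hbb-y, an embryonic beta-type globin, rose from 97.9 and 87.6 CPM to 138 and 147 CPM, with both Dox libraries above both untreated ones. Its log2 fold change was 0.61 ± 0.08 (adjusted p = 2.1e-05), and it was called in all 4 fits without 1 library. Hba-a1, an adult alpha globin, fell from 33.3 and 32.3 CPM to 21 and 21.9 CPM, with a log2 change of -0.61 ± 0.13 (adjusted p = 0.0055), a call lost without untreated replicate 1 (0.12) and Dox replicate 2 (0.085). The embryonic globins Hba-x and Hbb-bh1 were not called, with log2 fold changes of -0.38 ± 0.11 and -0.16 ± 0.13 (adjusted p = 0.1 and 0.78). Near-identical globin genes can share reads, so their split is uncertain.

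Of 22 tested platelet and megakaryocyte genes 5 fell, 1 rose and 16 were not called, with a median of -0.15. The share called was 27.3%, against 1.54% of all genes tested. Tubb1, the tubulin of the platelet's marginal band, went from 7.73 and 7.04 CPM to 3.53 and 3.86 CPM. Both Dox libraries were lower, with a log2 change of -1.0 ± 0.17 (adjusted p = 0.00063). Plek (pleckstrin) and Rab27b, a GTPase of dense granules, were lower, with log2 changes of -0.36 ± 0.07 and -0.29 ± 0.07 (adjusted p = 0.0016 and 0.032), beside Itgb3 and Gp1ba. P2ry1, an ADP receptor of platelets and endothelium, rose from 50.5 and 50.02 CPM to 71.6 and 70.2 CPM. The replicates were close and the log2 fold change was 0.49 ± 0.07 (adjusted p = 2.5e-05), and it was called without each library in turn. Without Dox replicate 2 the falls were 2 (Tubb1 and Gp1ba), without untreated replicate 1 they were 3, and without either of the others 4.

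White cell genes were called in small numbers, but at shares above that of all genes tested. In the lists of this paragraph the share called ran from 6.06% (leukocyte signalling genes) to 20% (myeloid markers), against 1.54% of all genes tested. Of 23 tested chemokines and their receptors 3 fell and none rose at the threshold (7 fell and 0 rose at an unadjusted p under 0.05). DESeq2 called 2 lower and 0 higher, and each limma fit 1 lower and 0 higher. Ccr2, a receptor of monocytes, had 4.04 and 3.56 CPM without Dox against 0.831 and 1.18 CPM with it. Its log2 change of -1.87 ± 0.26 (adjusted p = 3.6e-05) was called without each library in turn. Cx3cr1, another monocyte receptor, and Ackr3, a scavenger receptor also found on endothelium, were lower, with log2 changes of -1.05 ± 0.27 and -0.33 ± 0.07 (adjusted p = 0.036 and 0.013), calls that each held in at most 1 of the 4 fits without a library. Among 20 tested myeloid markers Spi1, Mpo and Cx3cr1 fell and Lyz2 (lysozyme) rose, from 4.67 and 5.04 CPM to 8.66 and 9.40 CPM (log2 fold change 0.92 ± 0.16, adjusted p = 0.00065, and 0.075 without untreated replicate 1). Of 33 tested leukocyte signalling genes 2 fell, and their median was -0.29: the adaptors Sla and Sla2 had log2 changes of -0.82 ± 0.15 and -1.43 ± 0.31 (adjusted p = 0.0021 and 0.0089). The call of Sla was lost without untreated replicate 1 and without Dox replicate 2 (0.16 in both), and that of Sla2 without untreated replicate 2 (0.12) and Dox replicate 2 (0.26).

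Of 25 tested purinergic and lipid mediator receptors 3 rose and 2 fell (20% called, against 1.54% of all genes tested). P2rx1, an ATP-gated channel of platelets, fell from 20.1 and 20.4 CPM to 12.4 and 11.9 CPM, with no overlap of the groups (log2 fold change -0.74 ± 0.12, adjusted p = 0.00058). Ptafr, the receptor for platelet-activating factor, had a log2 change of -1.09 ± 0.24 (adjusted p = 0.009, and 0.19, 0.074 and 0.077 without untreated replicate 1, Dox replicate 1 and Dox replicate 2). S1pr1, the sphingosine 1-phosphate receptor of endothelium, was higher by 0.25 ± 0.06 (adjusted p = 0.013), from 168 and 178 CPM to 203 and 206 CPM. That call held only without untreated replicate 2. Kcnj2, an inwardly rectifying potassium channel, went from 8.46 and 6.60 CPM to 2.77 and 3.16 CPM. It was among the 10 largest falls, at -1.36 ± 0.18 on the log2 scale (adjusted p = 1.8e-05). Of 16 tested potassium channel genes 1 other fell, Kcnk9 (-1.23 ± 0.28, adjusted p = 0.017, a call lost without each library in turn). Together 12.5% of these channel genes were called, against 1.54% of all genes tested.

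Several of the best supported falls were of genes outside the blood lists. Gpr56, an adhesion receptor of blood stem cells among other cells, was at 154 and 152 CPM without Dox and at 89.5 and 81.4 CPM with Dox. Both Dox libraries were far below, and its adjusted p of 7.9e-08 was the smallest of any fall (log2 fold change -0.85 ± 0.08). Smtnl2, a gene related to smoothelin, went from 47.1 and 47.7 CPM to 26.2 and 25.4 CPM. The replicates of each group lay close together, and the log2 change was -0.88 ± 0.09 (adjusted p = 1.2e-07). The hyaluronan receptor Lyve1, found on lymphatic and early endothelium, went from 26.4 and 26.6 CPM to 14.7 and 13.9 CPM, with a log2 change of -0.89 ± 0.10 (adjusted p = 2.2e-06). Has2, the enzyme that makes hyaluronan, was better expressed and changed less, from 263 and 240.0 CPM to 190.1 and 189 CPM (log2 fold change -0.41 ± 0.05, adjusted p = 1.1e-05). Gpr182, an endothelial receptor, fell from 19 and 21 CPM to 9.56 and 11.5 CPM, with a log2 change of -0.89 ± 0.12 (adjusted p = 2.8e-05). St8sia1, a sialyltransferase, fell from 11.1 and 10.7 CPM to 3.67 and 5.44 CPM, with a log2 change of -1.21 ± 0.18 (adjusted p = 9.3e-05). All 6 were called without each library in turn. Above a mean log2 CPM of 1 the largest fitted fall was that of Bzrap1, from 2.56 and 3.19 CPM to 0.970 and 0.514 CPM (log2 fold change -2.03 ± 0.36, adjusted p = 0.00092, and 0.16 without Dox replicate 2).

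A few arterial and Notch genes rose and none was called lower. Of 24 tested, 5 rose, 0 fell and 19 were not called, with a median log2 fold change of 0.15. The share called was 20.8%, against 1.54% of all genes tested. At an unadjusted p under 0.05, 9 rose and 2 fell. DESeq2 called 3 higher and 0 lower, and each limma fit 2 higher and 0 lower. Gja4 (chromosome 4, 127311421 to 127314039, minus strand) encodes connexin 37, a gap junction protein of arterial endothelium. It had 193 and 188 CPM without Dox against 278 and 311 CPM with it. The Dox libraries stood clear above the untreated ones, with a log2 change of 0.63 ± 0.06 (adjusted p = 8.7e-08). Efnb2 (ephrin-B2), the classical arterial marker, rose from 175 and 167 CPM to 214 and 229.7 CPM, by 0.38 ± 0.06 on the log2 scale (adjusted p = 7.3e-05). Both were called without each library in turn. Jag2, a Notch ligand, had 11 and 15.4 CPM without and 21.2 and 21.5 CPM with Dox. Untreated replicate 1 was the lowest, and without it the adjusted p was 0.13 in place of 0.00032 (log2 fold change 0.74 ± 0.12). Notch4, an endothelial Notch receptor, and Sema3g, an arterial semaphorin, were higher by 0.32 ± 0.08 and 0.35 ± 0.09 (adjusted p = 0.033 and 0.036). Both lost their calls without untreated replicate 1 (adjusted p = 0.51 and 0.34) and without Dox replicate 2 (0.46 and 0.63), and the list then held 2 and 3 called members. Without Dox replicate 1 Notch4 was at 0.056, and without untreated replicate 2 Sema3g was at 0.16. The ligand Dll4, the receptor Notch1 and the Notch target Hey1 were not called, with log2 fold changes of 0.22 ± 0.07, 0.19 ± 0.05 and 0.28 ± 0.09 (adjusted p = 0.18, 0.074 and 0.18).

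The promoter of Gja4 is printed because Gja4 had the smallest adjusted p of the arterial rises. With the same conventions as above, capitals mark ACAAT, 86 bases before the start.
Gja4, chr4:127314040-127314289, minus strand: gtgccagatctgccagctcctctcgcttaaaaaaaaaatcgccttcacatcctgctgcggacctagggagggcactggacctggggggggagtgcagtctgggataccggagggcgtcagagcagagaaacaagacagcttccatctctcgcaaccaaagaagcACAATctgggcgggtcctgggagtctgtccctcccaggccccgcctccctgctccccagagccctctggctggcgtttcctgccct
Over the windows of 250 bases before to 50 after the start, 91 of the 126 genes that rose and 78 of the 110 that fell had an entry, with 118 and 99 promoters, beside 13889 promoters of 10863 tested genes. ACAAT was in 26.3% of promoters of genes that rose, 14.1% of those of genes that fell and 20.5% of all. ACAAAG was in 8.47%, 13.1% and 13.7%. Together the SOX letters were in 31.4%, 25.3% and 30.7% of promoters. The RUNX letters were in 12.7%, 14.1% and 12.3%, the GATA letters in 9.32%, 11.1% and 6.49%, and the ETS letters in 11.9%, 14.1% and 25.7%. These shares are descriptions without a test, and short letters also match by base composition: the median GC content was 62.0%, 60.7% and 60.7%.

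A few general endothelial markers rose slightly. Of 28 tested, 5 rose, 0 fell and 23 were not called, with a median log2 fold change of 0.12. The share called was 17.9%, against 1.54% of all genes tested, and 22 had a positive value, against 51.7%. At an unadjusted p under 0.05, 14 rose and 2 fell. DESeq2 called 5 and 0, while both limma fits called 0 and 0. The summed level was 5660 and 5713 CPM in untreated libraries and 6049 and 6356 CPM in Dox libraries. Cd93, a lectin-like receptor, had 409.5 and 411 CPM without and 493 and 504 CPM with Dox, and Ets1, a transcription factor of endothelium, 519.6 and 556 CPM without and 655 and 645 CPM with Dox. In both genes the groups were separate, with log2 fold changes of 0.28 ± 0.05 and 0.27 ± 0.05 (adjusted p = 0.0017 and 0.0023). The adhesion protein Esam, the lectin Clec14a and the receptor Tie1 were higher by 0.29 ± 0.06, 0.35 ± 0.08 and 0.22 ± 0.06 (adjusted p = 0.011, 0.018 and 0.048). None of the 5 was called without untreated replicate 1, while 2, 4 and 1 were called without untreated replicate 2, Dox replicate 1 and Dox replicate 2. Cdh5 (VE-cadherin) missed the threshold, with 645 and 649.6 CPM without and 706 and 764 CPM with Dox (log2 fold change 0.18 ± 0.05, adjusted p = 0.091), and Kdr did too (0.15 ± 0.05, adjusted p = 0.22).

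Secreted signals and their receptors changed in small steps. Pdgfb, the growth factor by which endothelium recruits pericytes, rose from 128 and 145 CPM to 188 and 187 CPM. Its log2 fold change was 0.46 ± 0.06 (adjusted p = 1.8e-05), and it was called without each library in turn. Vegfa, the main endothelial growth factor, Bmp2, a bone morphogenetic protein, and Tgfbr2, a TGF-beta receptor, were higher by 0.23 ± 0.06, 0.22 ± 0.05 and 0.32 ± 0.06 (adjusted p = 0.029, 0.019 and 0.0011). Dusp6, a phosphatase that ERK signalling induces, was higher by 0.27 ± 0.06 (adjusted p = 0.0093), and Sema6a, a guidance semaphorin, by 0.42 ± 0.08 (adjusted p = 0.0017). Efnb1 (ephrin-B1) was lower, with a log2 change of -0.33 ± 0.08 (adjusted p = 0.023), while its relative Efnb2 rose. Nov (CCN3), a matricellular protein, had 1.83 and 1.33 CPM without and 3.88 and 4.85 CPM with Dox, which above a mean log2 CPM of 1 was the largest fitted rise after Sox7 (log2 fold change 1.43 ± 0.24, adjusted p = 0.00058). Postn (periostin), a matrix protein of mesenchyme, was lower, with a log2 change of -0.29 ± 0.07 (adjusted p = 0.02), and the laminin chain Lama4 was higher by 0.33 ± 0.06 (adjusted p = 0.0023). Of the 9 called genes of this paragraph other than Pdgfb, 6, 5, 3 and 7 lost their calls without untreated replicate 1, untreated replicate 2, Dox replicate 1 and Dox replicate 2 (adjusted p up to 0.47), and Vegfa lost it in each of these fits.

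The remaining leading rises came from genes with varied roles, and all described here except Mob3b were called in each of the 4 fits without 1 library. Glul, glutamine synthetase, was second to Sox7, with 206 and 215 CPM without and 349 and 341 CPM with Dox. The groups were separated by over 100 CPM, with a log2 change of 0.71 ± 0.06 (adjusted p = 3e-09). Its processed copy Glns-ps1 moved alike (log2 fold change 0.80 ± 0.09, adjusted p = 3.2e-06) and can share its reads. Sox13, a SOX factor outside the SOXF group, rose from 36.6 and 41.7 CPM to 65.9 and 66 CPM, by 0.77 ± 0.07 (adjusted p = 8.7e-08). Fat4, a large cadherin, rose from 97.4 and 97.5 CPM to 135 and 145 CPM, by 0.53 ± 0.05 (adjusted p = 3.7e-07). Slc5a3, a myo-inositol transporter whose gene lies within Mrps6, rose by 0.52 ± 0.06, and Abca1, the cholesterol exporter, by 0.80 ± 0.10 (adjusted p = 1.1e-06 and 5.9e-06). Rasgrp3, an exchange factor for RAS in endothelium, rose from 124 and 128 CPM to 173 and 183 CPM, by 0.50 ± 0.06 (adjusted p = 5.2e-06). The G protein subunit Gna12 rose by 0.40 ± 0.05, and Thsd1, a thrombospondin-domain protein of endothelium, by 0.54 ± 0.07 (adjusted p = 9.7e-06 and 3e-05). N4bp3 rose by 0.72 ± 0.08 (adjusted p = 1.6e-06). Rnf165, Fam181b and Ccdc85a were low without Dox, at 6.22 and 6.08, 3.62 and 3.41 and 3.02 and 4.15 CPM. With Dox they stood at 13.7 and 13.7, 8.80 and 7.09 and 9.56 and 8.41 CPM, rises of 1.15 ± 0.15, 1.14 ± 0.18 and 1.37 ± 0.19 on the log2 scale (adjusted p = 9.4e-06, 0.00036 and 4e-05). Mob3b rose from 3.16 and 2.45 CPM to 5.75 and 4.96 CPM, by 0.87 ± 0.21 (adjusted p = 0.021), a call lost without each library in turn (adjusted p from 0.091 to 0.24). Rnf165 and Fam181b were the 2 members called in a list of 12 tested neural markers, whose median log2 fold change was 0.31. The share called in that list was 16.7%, against 1.54% of all genes tested. Of the 12 neural markers tested, 8 had a positive value, against 51.7% of all genes tested. At an unadjusted p under 0.05, 4 rose and 0 fell. Nes had 367 and 392 CPM without and 385 and 427 CPM with Dox (not called). Sox1, also listed, did not pass the filter on low counts, with 0 reads in the 4 libraries.

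Other lists held calls as well. In the lists described in this paragraph the share called ran from 4.55% (hypoxia and glycolysis) to 17.4% (FGF and MAPK), against 1.54% of genes tested. Of 22 tested cytokine receptor genes Il9r and Lifr, receptors of interleukin 9 and of leukemia inhibitory factor, were higher, by 0.98 ± 0.26 and 0.21 ± 0.05 (adjusted p = 0.048 and 0.023), and Csf2rb fell. Of 18 tested integrin genes Itga4, a chain of the receptor for VCAM1 and fibronectin, had a log2 change of -0.55 ± 0.11 and Itga2, a chain of a collagen receptor, one of 0.70 ± 0.18 (adjusted p = 0.0025 and 0.04). Of 23 tested FGF and MAPK genes 3 rose (Dusp6, Fgf2 and Rasd2) and Fgf3 fell, with a log2 change of -1.18 ± 0.28 (adjusted p = 0.022). Of 16 tested cyclins and CDK inhibitors 2 fell, Ccnd3 (cyclin D3) with a log2 change of -0.25 ± 0.05 and Cdkn1c (p57) with one of -0.25 ± 0.06 (adjusted p = 0.0038 and 0.011). Of 22 tested hypoxia and glycolysis genes Vegfa rose and none fell at the threshold, though 10 were lower at an unadjusted p under 0.05. None of the 10 genes named here as called (Csf2rb and Vegfa aside) was called in all 4 fits without 1 library: 9, 6, 7 and 9 lost their calls without untreated replicate 1, untreated replicate 2, Dox replicate 1 and Dox replicate 2 (adjusted p up to 0.61). Fgf2 shares its locus with the antisense gene Nudt6, so its reads cannot be told apart from those of Nudt6 where strand was not used in counting.

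In 13 of the 48 gene lists edgeR called no gene at 6 h. They held 218 tested genes, and DESeq2 and both limma fits also called 0 of them. At an unadjusted p under 0.05 there were 25, 9 higher and 16 lower. Over all genes tested 1.54% were called and 10.4% were at an unadjusted p under 0.05. At such shares a short list often holds no call, so its absence says little about a programme. The lists were Wnt, retinoic acid, immediate early, interferon, lectin-type receptor, p53 target, DNA replication, mitosis, mitochondrial stress, BCL2 family, cardiac, pluripotency and endoderm genes. Other edgeR settings called 2 of their members of smallest p. One was Lin28a, a pluripotency marker, at an adjusted p of 0.019 without a filter on low counts, 0.041 with the 6 h libraries alone, 0.045 with the replicate number as a block and 0.058 here (log2 change 0.20 ± 0.05). Cyp26b1, which breaks down retinoic acid, was the other, with 8.11 and 8.30 CPM without and 5.20 and 4.30 CPM with Dox (log2 fold change -0.81 ± 0.22, adjusted p = 0.051). It was called with RLE scaling (adjusted p = 0.049), without a filter (0.00031) and with the 6 h libraries alone (0.0064). Cdt1 and Mcm5, which license DNA replication, had log2 fold changes of -0.20 ± 0.08 and -0.10 ± 0.05 (adjusted p = 0.26 and 0.56). Bst2 (tetherin), an interferon-induced protein, had 28.9 and 25 CPM without and 28.6 and 32.7 CPM with Dox (log2 fold change 0.18 ± 0.10, adjusted p = 0.58). For the 25 interferon genes the later hours differed: 5 were called lower at 12 h and 25 at 24 h, and the 24 h effect was lower than that of 6 h in 17 (background 1.45%). For the 20 lectin-type receptors the same test of 24 h against 6 h was called lower in 9. Members of both lists were chosen with earlier results of these data known. These later counts therefore describe the lists and are no test of them.

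The first responses mostly lasted. Levels at 12 h and 24 h did not enter the difference at 6 h, although those libraries shared in the filter and in the estimate of the spread. Of the 126 that had risen, 94 were called higher at 12 h (74.6%, against 3.26% of genes tested) and 93 at 24 h (73.8%, against 4.50%). Of the 110 that had fallen, 67 were called lower at 12 h (60.9%, against 3.51%) and 89 at 24 h (80.9%, against 6.52%). Both later hours were called the same way in 80 of the genes that rose and 64 of those that fell, and neither in 19 and 18. The median effect of the genes that rose was 0.34 at 12 h and 0.37 at 24 h, and that of the genes that fell -0.40 and -0.65. Seen from the later hours the early set was small. Of 690 genes called higher at 24 h, 13.5% had been called higher at 6 h, and of 1000 called lower 8.90% had been called lower.

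**Figure D4:**
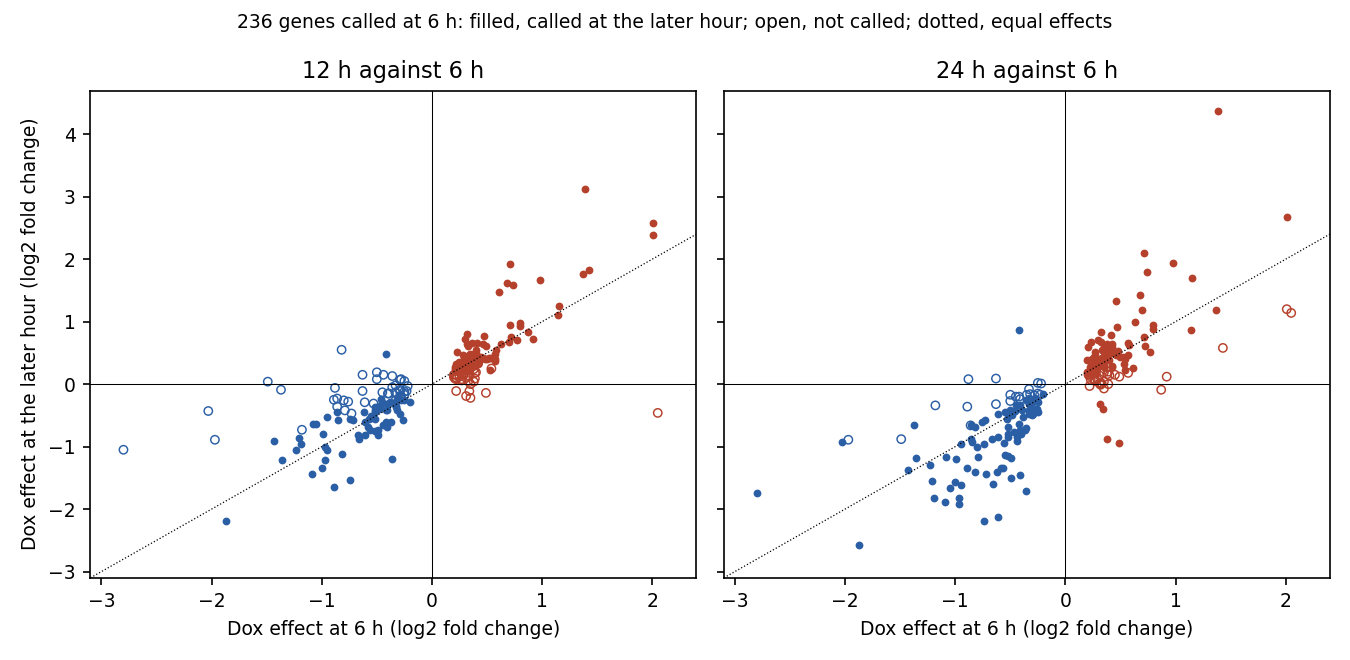
Dox effect at 12 h (left) and 24 h (right) on the vertical axes against the effect at 6 h on the horizontal axes, all as log2 fold changes, for the 236 genes called at 6 h. Filled points were called at the later hour (red for genes higher at 6 h, blue for genes lower), and at 24 h most blue points lie under the dotted line of equal effects, with a median of -0.65 against -0.52 at 6 h.

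Whether an effect changed was tested by the difference itself. Choosing genes by their effect at 6 h favours later effects that look smaller, since the same 6 h libraries enter the difference. Among the genes that had risen, the effect at 24 h differed from that at 6 h upwards in 11 and downwards in 7, and among those that had fallen upwards in 2 and downwards in 16. Over all genes tested 2.08% were called. Plek and Hba-a1 had the smallest adjusted p among the falls that deepened by 24 h. Plek had log2 effects of -0.36 at 6 h, -1.20 at 12 h and -1.71 at 24 h, with an adjusted p of 5e-11 for the difference of 24 h to 6 h. Hba-a1 had effects of -0.61, -0.81 and -2.13 (adjusted p of the difference 1.5e-06). In Gfi1b and Smtnl2 the fall was smaller later. Gfi1b had effects of -1.37, -0.09 and -0.65, and the difference to 6 h was called at 12 h (adjusted p = 0.0026) and not at 24 h (adjusted p = 0.088). Smtnl2 had effects of -0.88, -0.06 and 0.08, and its effect at 24 h differed from that at 6 h with an adjusted p of 5.8e-06. Of the genes that had risen, 4 were called lower at 24 h, namely Kctd12, St8sia4, Rgs2 and Lars2, and of those that had fallen 1 was called higher, Rgs5. Gja4 and Jag2 grew from 0.63 and 0.74 at 6 h to 0.99 and 1.80 at 24 h (adjusted p of the difference 0.017 and 0.00024).

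Genes that fell at 6 h were often ones that rose later in untreated cells. Between 12 h and 24 h without Dox, in libraries that share none with the comparison of 6 h, 58 of the 110 rose (52.7%, against 12.2% of genes tested) and 10 fell (9.09%, against 10.2%). Their median change was 0.33 on the log2 scale, where that of all genes was 0.006. Of the 126 genes that Dox had raised 17 rose (13.5%) and 24 fell (19.0%), and their median was -0.04. Tubb1, Slc4a1 and Ccr2 rose in untreated cells by 1.35, 1.25 and 1.17 on the log2 scale (adjusted p = 4.4e-09, 4.6e-09 and 3.4e-06). The early regulators were mixed: Spi1 rose by 0.77 (adjusted p = 0.00038) and Nfe2 by 0.35 (0.0059), while Tal1, Myb and Gfi1b were not called, at -0.12, -0.23 and 0.30. Gpr182 fell under Dox and also fell in untreated cells, with a log2 change of -0.84 (adjusted p = 5.3e-06). Hbb-y and Abca1 rose under Dox and also rose in untreated cells, by 1.16 and 1.03 (adjusted p = 6.8e-12 and 2.2e-10).

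**Figure D5:**
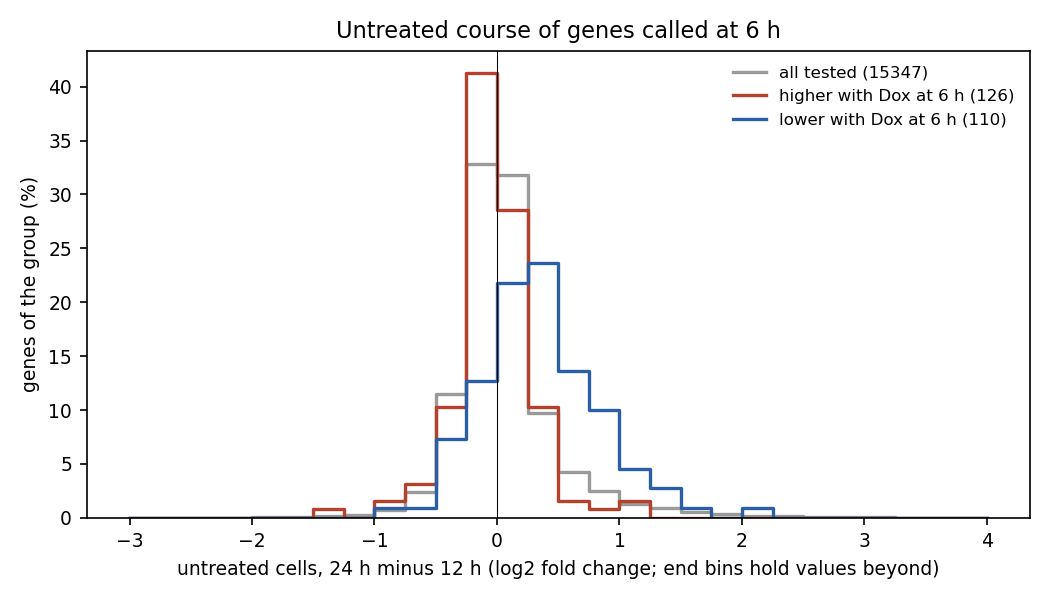
Share of genes (vertical axis, %) by their change in untreated cells from 12 h to 24 h (horizontal axis, log2 fold change in steps of 0.25) for all tested genes, the 126 raised and the 110 lowered by Dox at 6 h. The curve of the lowered genes is shifted to the right, with a median of 0.33 against -0.04 for the raised genes.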

How the data were processed

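RNA was sequenced from 12 libraries (2 per group), with 75-base reads after 14 PCR cycles from 200 ng of RNA per the labels' protocols. The authors deposited 2 tables, one of raw counts per gene and one of RPKM (reads scaled to gene length and library size). Per the submitters' processing notes the tools were edgeR 3.8.5 in R 3.1.0, SAMtools 0.1.19, the aligner Bowtie2 and bcl2fastq 2.16.0.10, and the genome was GRCm38. Not given in the sources used here were the counting tool, its annotation and its use of strand, so overlapping genes, pseudogenes and globins can share reads (Glul with Glns-ps1, Slc5a3 with Mrps6, Lpar6 with Rb1, Cbfa2t3 with Gm15899, Cebpb with Tmem189, Sla with Tg, Sla2 with 1110008F13Rik).

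The deposited counts of all 12 libraries were fitted with edgeR 4.0.16 in R 4.3.3 (TMM scaling, filterByExpr on group, 1 mean per group, quasi-likelihood test, Benjamini-Hochberg adjustment over 15347 of 41128 genes, called at an adjusted p under 0.05). CPM uses the scaled library size, and a value after ± is an SE unless named otherwise. Later hours, differences of effects and the untreated course are contrasts of the same fit. Named were 8 preset genes, the 15 called genes of smallest adjusted p and the 10 of largest change in each direction (mean log2 CPM of at least 1, without pseudogenes and unnamed models), called members of 48 gene lists, the 2 of smallest p in lists without a call, and the 10 of smallest p for each difference and direction. The members and lists were chosen with earlier results of these data known. The values of 1 called gene are not reported here. The list names Eto2 and Pira1 matched no gene name. Eto2 is another name of Cbfa2t3, which was counted with the RUNX genes and partners and not among the 27 blood transcription factors. On simulated counts for this comparison (15197 genes) the test found 63.1%, 77.6% and 90.9% of genes changed 1.5-fold, 2-fold and 4-fold, and 6.71% of its 164 calls were false. Replicates differed by more than counting noise (chi-square per degree of freedom 3.77 without and 3.98 with Dox). Same-numbered libraries did not deviate together (r = -0.0335 at 6 h), so the replicate numbers were not taken to pair the samples. Alternatives were scaling by RLE or by upper quartiles, leaving out the filter or a stricter one (1 CPM in 4 libraries), a replicate block, a depth block (chosen after seeing the data), the 6 h libraries alone, DESeq2 1.42.0, limma 3.58.1 on log2(RPKM + 0.1) and log2(RPKM + 1), and leaving out each 6 h library.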

Additional observations from a re-analysis of the deposited data

Results flagged for a closer look

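Among the named genes called at 6 h, there were 37 in which the Dox effect of a later hour differed from that of 6 h by a test of the difference itself (edgeR, adjusted over all genes tested), at 45 gene and hour pairs in all. Called genes that were not named are not listed. The 6 h effects chose the genes, which favours differences towards smaller later effects. Values are differences of log2 effects, later hour minus 6 h, with the adjusted p in parentheses. Among those that had risen at 6 h, the effect at 12 h was higher for Clic6 1.21 (7.7e-06), Dpysl3 0.42 (0.012), Hbb-y 0.86 (7.6e-05), Jag2 0.84 (0.015) and Sox7 0.57 (0.0012). Of the rises, the effect at 24 h was higher for Aqp1 0.37 (0.04), Clic6 1.39 (1.5e-07), Dpysl3 0.40 (0.0036), Gja4 0.36 (0.017), Jag2 1.06 (0.00024), Lifr 0.39 (0.0016) and Rasd2 2.98 (0.00057). The same held at 24 h for Sost 0.87 (0.0058), Sox7 0.67 (2e-05) and Vegfa 0.44 (0.0013). At 12 h it was lower, still among the rises, for Bmp2 -0.33 (0.038), Klhl4 -0.56 (0.016) and Lars2 -0.50 (0.02). At 24 h it was lower among the rises for Kctd12 -1.26 (5.6e-10), Lars2 -0.63 (0.00035), Lyz2 -0.79 (0.033), P2ry1 -0.37 (0.028), Rgs2 -0.72 (0.00057), St8sia4 -1.43 (3.1e-06) and Tgfbr2 -0.33 (0.019). Among those that had fallen at 6 h, the effect at 12 h was higher for Gfi1b 1.28 (0.0026), Rgs5 0.90 (0.0016), Ror2 0.69 (0.031), Slc16a3 1.37 (0.015) and Smtnl2 0.82 (0.00036). Of the falls, the effect at 24 h was higher for Rgs5 1.28 (1.1e-06) and Smtnl2 0.96 (5.8e-06). At 12 h it was lower among the falls for Lyve1 -0.74 (0.012) and Plek -0.85 (2.9e-06). At 24 h it was lower among the falls for Alox5ap -0.72 (0.044), Csf2rb -0.76 (0.0012), Fgl2 -1.45 (2.9e-05), Hba-a1 -1.52 (1.5e-06), Itga4 -0.59 (0.024) and Itgb3 -0.37 (0.016). The same held at 24 h for Lpl -1.05 (5.5e-06), Mpo -0.94 (0.0028), Plek -1.36 (5e-11), Slc4a1 -0.86 (0.0086) and Slc7a11 -0.71 (0.0096).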

How the results depend on the processing

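Each of the 236 called genes kept its direction under every alternative that tested it, and 46 (27 higher, 19 lower) also kept their call in all of them. Without 1 library of 6 h in turn the calls ranged from 86 to 180, the higher from 47 to 95 and the lower from 35 to 85. limma on log2(RPKM + 0.1) called 78 genes (34 higher, 44 lower) and on log2(RPKM + 1) 67 (31 higher, 36 lower). Without a filter on low counts 177 genes were called lower (110 with it), and within the genes called at 6 h the difference of 12 h to 6 h was called positive in 23 genes and negative in 9 (11 and 5 with it). The cause was not tested. RLE scaling (235), upper-quartile scaling (227), the stricter filter (229), the depth block (238), the 6 h libraries alone (259) and DESeq2 (204) stayed within 1.5 times. The replicate block, a pairing that the libraries did not show, gave 249 calls (133 higher, 116 lower), 233 of them shared with the 236. With 2 libraries a group 63.1% of simulated 1.5-fold changes were found, so a gene without a call may still have changed.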
